A study of Mus musculus with 9 samples.

Results

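The 41 genes described here are marker and function genes of liver endothelium, among them receptors, junction proteins and secreted signals of the cells that line the sinusoids, the capillaries of the liver. They were chosen by name, as the genes whose symbol in the authors' gene table equals an entry of a list of 41. The list was drawn up with earlier results of these data known, so counts over it are description and not an independent test. Each entry matched 1 of the 27945 genes with a count, and the 41 members were among the 18113 genes that passed a filter on low counts. The data are 9 RNA-seq libraries of poly(A) RNA from mouse liver, 3 in each of the groups labelled treated, model and control. The series title names liver damage by gefitinib, an inhibitor of the epidermal growth factor receptor kinase. The labels give no agent, dose, time, age, sex, strain or genotype for any group, and what the treated and model groups received is not given in the sources used here. They name liver as the tissue and liver cells in the sample names, and whether cells were isolated is not said. Nothing says that the libraries of a group are separate animals, so p-values measure only the spread between these libraries, which may be technical.

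Liver sinusoidal endothelial cells have open pores and no continuous basement membrane. They take up waste molecules from blood through scavenger receptors, and they send signals such as Wnt and bone morphogenetic protein (BMP) ligands to neighbouring hepatocytes. Vascular endothelial growth factor (VEGF) and angiopoietin receptors maintain these cells. When sinusoids turn into ordinary capillaries, sinusoidal genes are known to decline while genes of continuous or venous endothelium appear.

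Library depth was even, with totals of 56440871 to 60665156 estimated counts. The defining markers of the labelled tissue were present in each library, with 9 measured hepatocyte markers summing to 69319 to 84168 CPM in treated, 87109.7 to 88660.5 CPM in model and 82173 to 96659 CPM in control livers. CPM here are counts relative to library size, with library sizes scaled by TMM. The 10 skeletal muscle markers summed to 137 to 178 CPM in the treated libraries and to 204 CPM in model replicate 1, against at most 1.38 CPM in the other 5 libraries, so muscle RNA moves with part of the groups. Its part in the results was not tested. The treated libraries all carry it, so treated and control livers differ in it throughout.

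Endothelial transcripts were lower in model than in control livers, and lower again, for a part of the genes, in treated than in model livers. Of the 41 members, 19 were called lower and none higher in model compared with control livers, where 0.596% of all genes tested were called lower and 0.519% higher (1.12% in either direction). A call is an adjusted p under 0.05 over all genes tested. In treated compared with model livers, 10 members were called lower and none higher, against 4.44% of all genes called lower and 5.21% higher (9.65% in either direction). In treated compared with control livers, 33 members were called lower and none higher, against 8.47% of all genes called lower and 9.36% higher (17.8% in either direction). The median log2 fold change of the members was -1.29 in model versus control, -0.52 in treated versus model and -1.73 in treated versus control livers, where the medians over all genes tested were -0.0009, 0.005 and -0.009. In bulk RNA, fewer endothelial cells and less of these transcripts per cell cannot be told apart. The comparisons share libraries with each other, so their values stand side by side and are not independent.

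**Figure D1:**
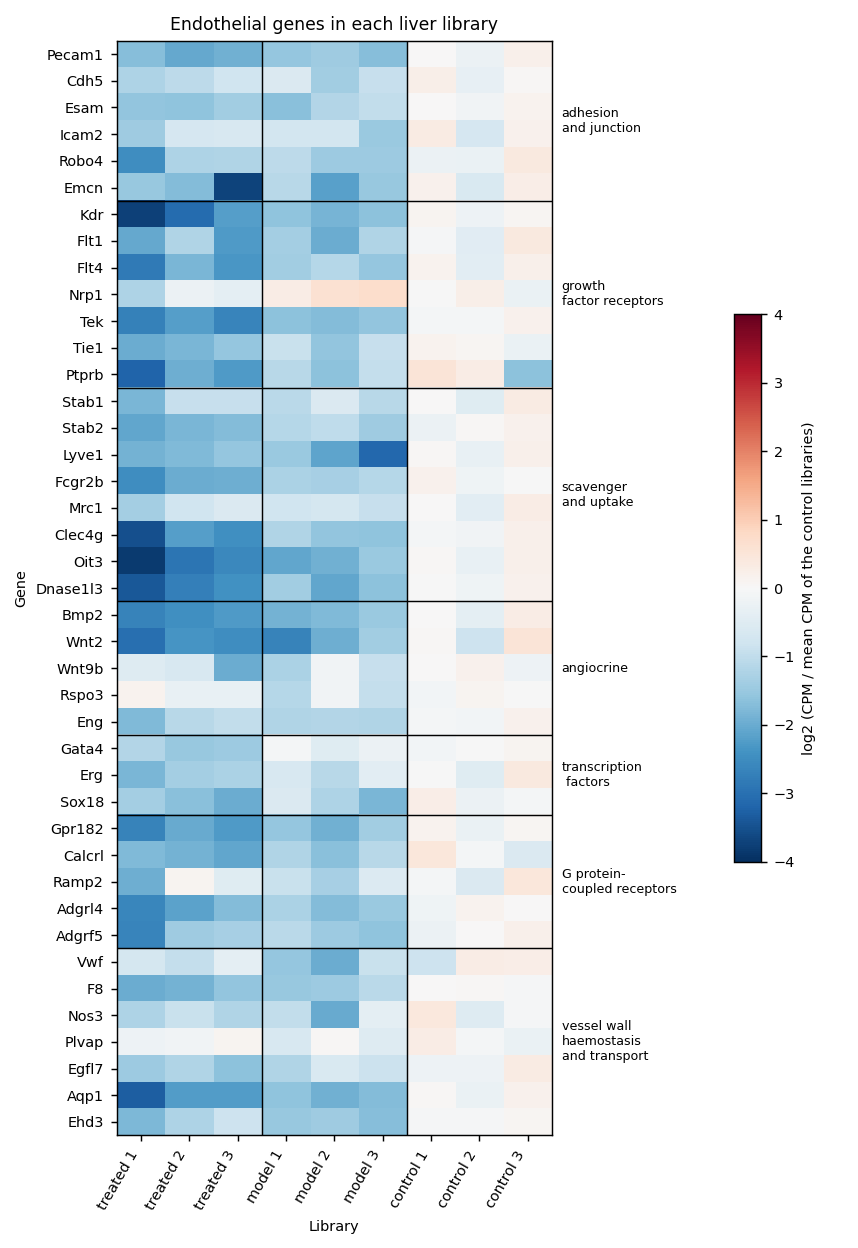
Level of each of the 41 genes (rows, grouped by role) in each of the 9 libraries (columns), as log2 of the CPM over the mean CPM of the control libraries, with blue below and red above that mean. Most rows are pale in control, blue in model and darker blue in treated libraries, while the rows of Plvap and Rspo3 stay pale in treated libraries and that of Nrp1 is red in model libraries.

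In model compared with control livers the estimate lay below 0 for 40 of 41 members, against 50.1% of all genes tested, and the libraries of the 2 groups did not overlap, with model below control, for 33 members, against 10.2% of all genes. The member above 0 was Nrp1. In treated compared with model livers, 34 estimates lay below 0, against 49.5% of all genes, and treated libraries lay wholly below model libraries for 18 members, against 15.0% of all genes. In treated compared with control livers, each of the 41 estimates lay below 0, against 50.8% of all genes, and 35 members did not overlap, against 18.0% of all genes. Treated replicate 1 was the lowest of the treated libraries for 30 of the 41 members. The same count over all genes was not made. That library was also the lowest treated one for summed hepatocyte and macrophage markers, though not for stellate cell or red blood cell markers. The calls depended on single libraries. Without model replicate 1, the library with muscle transcripts, 10 members were called lower in model versus control, 5 in treated versus model and 32 in treated versus control livers. Without model replicate 2, 7 members were called in model versus control livers, and without model replicate 3, 3 were called in treated versus model livers. Without treated replicate 1, 6 members were called lower in treated versus model livers. The count of 33 in treated versus control livers moved to between 30 and 33 without any single library.

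Members fell into few patterns of calls. Those called lower in each of the comparisons were 7 genes, namely Kdr, Flt4, Tek, Stab2, Fcgr2b, Oit3 and Dnase1l3. A further 12 were lower in model and treated livers against control livers with no call between treated and model livers. Another 12 were called in treated versus control livers alone. Clec4g and Gata4 were called lower in treated livers against both other groups, and Nrp1 was called lower in treated against model livers alone. The remaining 7, Icam2, Wnt9b, Rspo3, Ramp2, Vwf, Nos3 and Plvap, had no call. A gene called in one comparison and not in another is not thereby shown to differ between them.

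**Figure D2:**
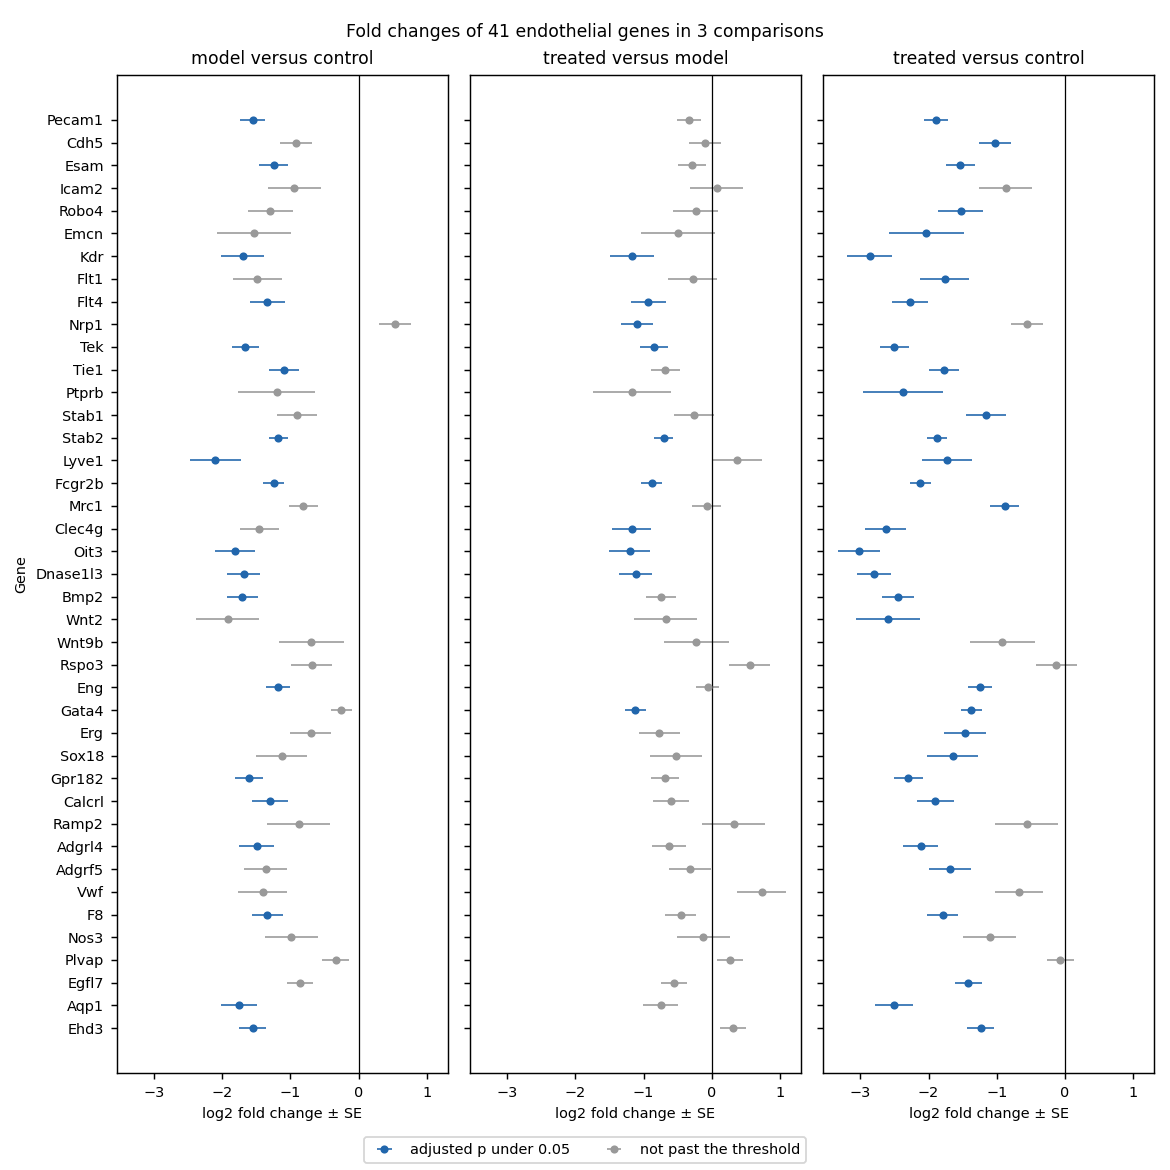
Fold changes of the 41 genes (rows) with their standard errors in model versus control, treated versus model and treated versus control livers, on a log2 scale. Blue points passed an adjusted p of 0.05 and grey points did not. The points lie left of 0 for 40 members in the first panel, 34 in the second and 41 in the third.

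Promoters are shown for the 5 genes that were lower in each comparison and have an entry in the RefSeq promoter table, together with that of Nrp1, whose level in model livers was the one above control. The table matched 24 of the 41 members with 29 promoters, each a window of 300 bases that lies mostly upstream of a transcript start. Among the members, ETS factors such as Erg and GATA factors such as Gata4 recognise short DNA cores, which is why these letters were searched. Capitals mark the letters AGGAAG or CCGGAA, which are extended ETS cores. They also mark AGATAA as a core for the other family. Both strands were searched. A match on the opposite strand appears as CTTCCT for the first, as TTCCGG for the second and as TTATCT for the third. Each promoter printed here holds at most 1 match, so none overlaps another. Coordinates are those of GRCm38.p6, with Kdr at chr5:75978406-75978705 on the minus strand, Flt4 at chr11:49609429-49609728 on the plus strand, Tek at chr4:94739039-94739338 on the plus strand, Stab2 at chr10:87007893-87008192 on the minus strand, Fcgr2b at chr1:170976022-170976321 on the minus strand and Nrp1 at chr8:128358823-128359122 on the plus strand.
Kdr: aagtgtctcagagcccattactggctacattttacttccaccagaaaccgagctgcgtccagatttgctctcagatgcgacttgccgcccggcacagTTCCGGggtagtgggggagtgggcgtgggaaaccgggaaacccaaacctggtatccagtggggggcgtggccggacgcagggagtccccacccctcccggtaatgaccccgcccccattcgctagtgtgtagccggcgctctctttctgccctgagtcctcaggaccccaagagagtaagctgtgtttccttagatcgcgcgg
Flt4: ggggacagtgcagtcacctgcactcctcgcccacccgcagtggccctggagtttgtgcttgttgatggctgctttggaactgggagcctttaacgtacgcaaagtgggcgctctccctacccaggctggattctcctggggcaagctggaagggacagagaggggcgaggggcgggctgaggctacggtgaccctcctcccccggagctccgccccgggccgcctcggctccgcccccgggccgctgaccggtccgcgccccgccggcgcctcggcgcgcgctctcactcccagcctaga
Tek: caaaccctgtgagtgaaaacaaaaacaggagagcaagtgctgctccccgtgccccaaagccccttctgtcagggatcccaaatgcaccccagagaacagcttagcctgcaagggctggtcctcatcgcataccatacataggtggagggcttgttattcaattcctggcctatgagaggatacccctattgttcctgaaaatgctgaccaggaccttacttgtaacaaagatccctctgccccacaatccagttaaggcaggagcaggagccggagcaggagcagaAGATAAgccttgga
Stab2: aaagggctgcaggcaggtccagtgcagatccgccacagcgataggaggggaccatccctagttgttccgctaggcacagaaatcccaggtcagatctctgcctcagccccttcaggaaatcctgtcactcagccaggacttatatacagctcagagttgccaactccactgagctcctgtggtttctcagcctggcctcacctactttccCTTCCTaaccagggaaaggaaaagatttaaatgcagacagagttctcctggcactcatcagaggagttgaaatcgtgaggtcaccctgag
Fcgr2b: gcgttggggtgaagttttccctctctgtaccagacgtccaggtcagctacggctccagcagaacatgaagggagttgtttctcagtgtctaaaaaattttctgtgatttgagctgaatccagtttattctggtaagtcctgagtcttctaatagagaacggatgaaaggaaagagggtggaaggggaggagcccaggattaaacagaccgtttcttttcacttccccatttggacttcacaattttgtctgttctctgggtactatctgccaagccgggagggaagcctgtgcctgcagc
Nrp1: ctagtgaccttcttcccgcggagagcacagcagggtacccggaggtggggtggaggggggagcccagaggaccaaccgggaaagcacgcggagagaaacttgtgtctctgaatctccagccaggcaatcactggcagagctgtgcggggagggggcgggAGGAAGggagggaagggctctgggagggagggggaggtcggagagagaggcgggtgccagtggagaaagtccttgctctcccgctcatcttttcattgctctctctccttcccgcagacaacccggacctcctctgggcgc

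The letters AGGAAG were found in 18 of the 29 member promoters (62.1%), against 35.4% of all 32851 promoters of the table. CCGGAA was in 2 of 29 (6.9%), against 14.9% of all promoters, and AGATAA in 2 of 29 (6.9%), against 11.2%. Stab2 and Nrp1 each held 1 AGGAAG match, Kdr 1 CCGGAA match and Tek 1 AGATAA match, while Flt4 and Fcgr2b held none of these letters in this window. These matches describe letters in a window and not binding.

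Among adhesion and junction genes, Pecam1 and Esam fell in model livers, and 5 of 6 members were lower in treated than in control livers. Pecam1 encodes an adhesion molecule at endothelial cell contacts (chromosome 11, 106654217 to 106750628, minus strand, GRCm38). It had 4.80, 3.80 and 4.15 CPM in treated, 5.42, 5.88 and 4.79 CPM in model and 15.9, 13.3 and 18.0 CPM in control livers. Control libraries stood apart from the other 2 groups, which overlapped each other. The level was 2.93-fold lower in model than in control livers (log2 fold change -1.55, SE 0.18, adjusted p = 0.0068) and was past the threshold in treated versus control livers too (log2 fold change -1.89, SE 0.18, adjusted p = 9.77e-05). Treated and model livers were not called different (log2 fold change -0.34, SE 0.18, adjusted p = 0.278). Cdh5, the VE-cadherin of adherens junctions, had 5.22, 5.91 and 7.02 CPM in treated, 8.27, 4.70 and 6.53 CPM in model and 14.5, 9.75 and 12.7 CPM in control livers. Here model and treated libraries lay below control libraries and overlapped each other. The fall was called in treated versus control livers (log2 fold change -1.02, SE 0.23, adjusted p = 0.0125) and not in model versus control livers (adjusted p = 0.0929).

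Esam, an adhesion molecule of tight junctions, had 3.34, 3.28 and 3.81 CPM in treated, 3.19, 4.45 and 5.13 CPM in model and 10.1, 9.06 and 11.1 CPM in control livers. Its libraries separated in the same way, with log2 fold change -1.24, SE 0.21, adjusted p = 0.022 in model versus control and log2 fold change -1.53, SE 0.21, adjusted p = 0.000835 in treated versus control livers. Esam lost its call in model versus control livers when control replicate 2 or 3, or one of model replicates 1 and 2, was left out and then stood at an adjusted p of up to 0.09. Robo4, a guidance receptor of endothelium, had 2.38, 5.73 and 5.78 CPM in treated, 6.52, 4.93 and 4.92 CPM in model and 11.3, 11.1 and 17.7 CPM in control livers, with treated replicate 1 the lowest library. It was called in treated versus control livers (log2 fold change -1.53, SE 0.33, adjusted p = 0.00944). Emcn, an endothelial sialomucin of capillaries and veins, had 0.865, 0.748 and 0.189 CPM in treated, 1.15, 0.549 and 0.857 CPM in model and 2.81, 1.62 and 2.99 CPM in control livers. Treated replicate 3 was the lowest of these low values, and the call in treated versus control livers (log2 fold change -2.03, SE 0.55, adjusted p = 0.0275) was lost without control replicate 1 or 3 or treated replicate 2 (highest adjusted p = 0.0783). Icam2, an adhesion molecule for leukocytes, had 0.953 to 1.65 CPM in treated, 0.910 to 1.55 CPM in model and 1.60 to 3.24 CPM in control livers and had no call.

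Growth factor receptors held 4 of the 10 calls in treated versus model livers, and the scavenger and uptake group described below held 5. Kdr is the main signalling receptor for VEGF-A (chromosome 5, 75932827 to 75978458, minus strand). It had 2.596, 4.09 and 7.48 CPM in treated, 11.2, 9.51 and 11.1 CPM in model and 37.4, 29.5 and 36.1 CPM in control livers. The 3 groups did not overlap, with treated lowest and control highest. Kdr fell in model versus control livers (log2 fold change -1.69, SE 0.32, adjusted p = 0.0427), in treated versus model livers (log2 fold change -1.17, SE 0.32, adjusted p = 0.0494) and in treated versus control livers (7.27-fold lower, log2 fold change -2.86, SE 0.33, adjusted p = 0.000582). The first call was lost without any single control or model library or treated replicate 2 (highest adjusted p = 0.172). The second was lost without any single library other than treated replicate 3 (highest adjusted p = 0.148). Kdr also lost both calls with no filter on low counts, and the second with DESeq2 size factors and with only the 6 libraries compared.

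Flt4, the receptor for VEGF-C that sinusoidal and lymphatic endothelium carry, had 2.51, 5.04 and 3.57 CPM in treated, 6.90, 8.18 and 6.14 CPM in model and 19.7, 13.5 and 20.5 CPM in control livers. Its groups were ordered like those of Kdr, with no overlap, and it fell in model versus control (log2 fold change -1.34, SE 0.26, adjusted p = 0.0363) and treated versus control livers (log2 fold change -2.27, SE 0.27, adjusted p = 0.000306). Its call in treated versus model livers (log2 fold change -0.93, SE 0.26, adjusted p = 0.0449) was lost without control replicate 1 or 3, any single model library or treated replicate 1 or 3 (highest adjusted p = 0.128), and with limma-voom or only the 6 libraries compared. That in model versus control livers was lost without control replicate 1 or 3 or any single model library (highest adjusted p = 0.139). Flt1, a VEGF receptor that also occurs as a soluble decoy, had 1.42, 2.55 and 1.23 CPM in treated, 2.29, 1.48 and 2.55 CPM in model and 5.72, 4.27 and 7.71 CPM in control livers and was called in treated versus control livers (log2 fold change -1.77, SE 0.36, adjusted p = 0.0069).

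Tek and Tie1 form the angiopoietin receptor pair, and Ptprb is the phosphatase that acts on Tek. Tek had 1.64, 2.29 and 1.70 CPM in treated, 3.39, 3.16 and 3.57 CPM in model and 9.99, 9.998 and 11.9 CPM in control livers, again 3 groups with no overlap. It fell in model versus control (log2 fold change -1.66, SE 0.20, adjusted p = 0.0068), treated versus model (log2 fold change -0.84, SE 0.20, adjusted p = 0.0267) and treated versus control livers (log2 fold change -2.50, SE 0.21, adjusted p = 5.23e-05). The second was lost without model replicate 1 or 3 or treated replicate 1 or 3 (highest adjusted p = 0.0917), and with only the 6 libraries compared. Tie1 had 3.83, 4.29 and 5.23 CPM in treated, 8.27, 5.09 and 8.01 CPM in model and 16.8, 16.1 and 12.7 CPM in control livers, with treated and model libraries below control libraries. It was called in model versus control (log2 fold change -1.09, SE 0.22, adjusted p = 0.0415) and treated versus control livers (log2 fold change -1.77, SE 0.22, adjusted p = 0.000454). The first of its calls was lost without any single control or model library or treated replicate 2 (highest adjusted p = 0.122).

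Ptprb had 3.58, 8.45 and 6.83 CPM in treated, 15.2, 10.4 and 17.0 CPM in model and 47.1, 40.3 and 10.5 CPM in control livers, so that control replicate 3 lay apart from the other control libraries. In that library its 32-exon transcript had 0 estimated counts, against 2600 and 2094 in the other control libraries. Its counts there stood under a 34-exon transcript. The call in treated versus control livers (log2 fold change -2.38, SE 0.59, adjusted p = 0.0327) was lost without any single library other than control replicate 3 (highest adjusted p = 0.103), with no filter on low counts and with only the 6 libraries compared. Nrp1, a co-receptor for VEGF and semaphorins that cells other than endothelium also express, had another order of groups than the rest of the receptors. It had 9.68, 19.2 and 17.0 CPM in treated, 27.4, 34.3 and 36.3 CPM in model and 22.5, 26.6 and 18.5 CPM in control livers. Model libraries were the highest and did not overlap with the others, while treated and control libraries overlapped. Nrp1 fell in treated versus model livers (log2 fold change -1.09, SE 0.24, adjusted p = 0.0208), a call lost when model replicate 2 or 3 was left out (adjusted p up to 0.0718). The higher level in model than in control livers was not past the threshold (log2 fold change 0.54, SE 0.24, adjusted p = 0.355).

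**Figure D3:**
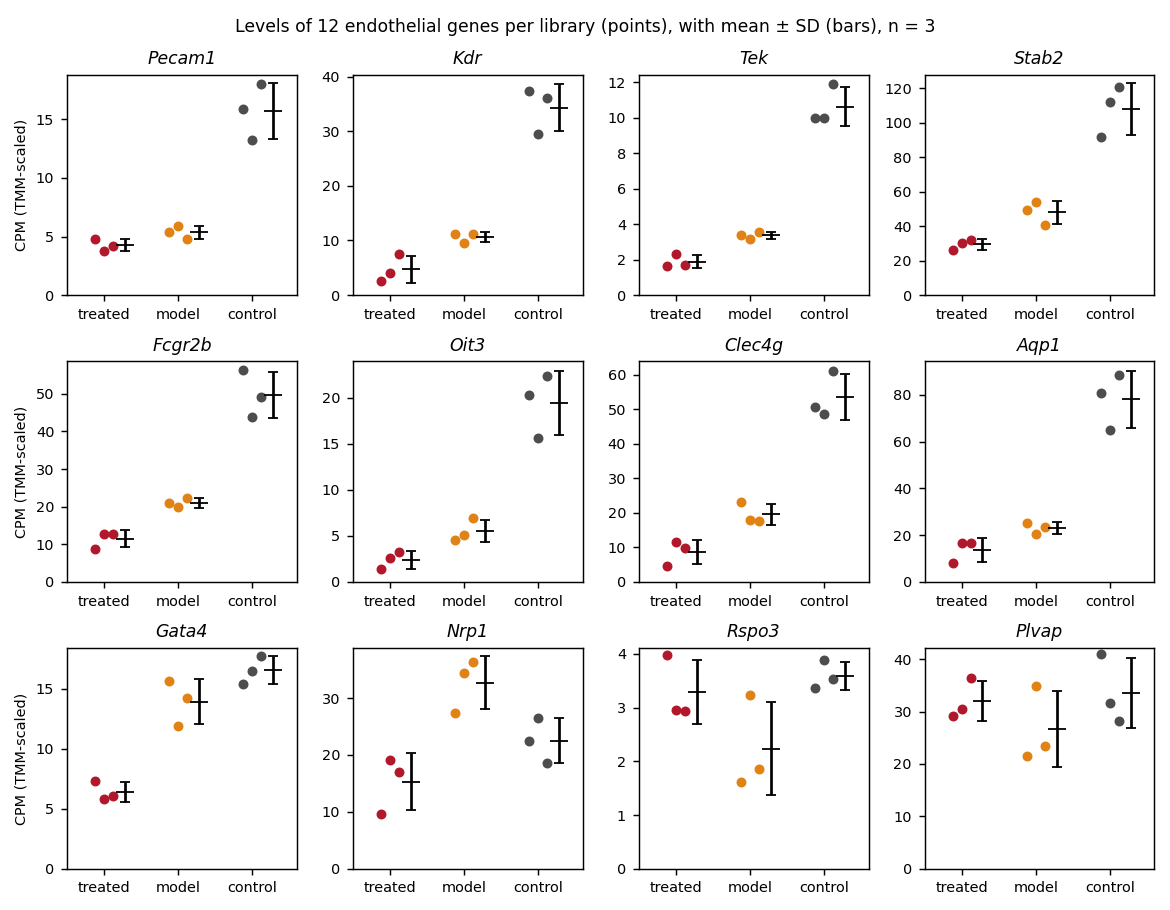
CPM of 12 of the genes in each library (points) with the mean and SD of the 3 libraries of a group (bars), on linear axes from 0. Treated libraries lie below model libraries and those below control libraries for Kdr, Tek, Stab2, Fcgr2b, Oit3, Clec4g and Aqp1, whereas the groups of Plvap overlap and treated libraries of Gata4 lie apart from the overlapping model and control libraries.

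Scavenger and uptake genes, the group most closely tied to sinusoidal function, were lower in treated than in control livers for 8 of 8 members. Stab2, a scavenger receptor for hyaluronan (chromosome 10, 86841198 to 87008025, minus strand), had 25.8, 30.2 and 32.1 CPM in treated, 49.4, 53.7 and 40.6 CPM in model and 91.5, 112 and 121 CPM in control livers. The groups did not overlap. Stab2 fell in model versus control (log2 fold change -1.17, SE 0.14, adjusted p = 0.0068), treated versus model (log2 fold change -0.71, SE 0.14, adjusted p = 0.011) and treated versus control livers (log2 fold change -1.88, SE 0.14, adjusted p = 3.05e-05). Its calls held in each of 15 alternatives. Its relative Stab1, which macrophages also express, had 19.7, 36.9 and 36.8 CPM in treated, 33.3, 46.4 and 31.9 CPM in model and 70.9, 49.9 and 87.8 CPM in control livers. Model and treated libraries overlapped, and the call was in treated versus control livers alone (log2 fold change -1.16, SE 0.29, adjusted p = 0.0284). It was lost without control replicate 1 or 3 or treated replicate 3 (highest adjusted p = 0.0815), and with no filter on low counts.

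Fcgr2b, the inhibitory Fc receptor with which sinusoidal endothelium clears immune complexes (chromosome 1, 170958617 to 170976547, minus strand), had 8.87, 12.7 and 12.8 CPM in treated, 20.9, 19.9 and 22.4 CPM in model and 56.3, 44.0 and 49.1 CPM in control livers. No groups overlapped, and the calls in model versus control (log2 fold change -1.24, SE 0.15, adjusted p = 0.0068), treated versus model (log2 fold change -0.88, SE 0.15, adjusted p = 0.00541) and treated versus control livers (log2 fold change -2.12, SE 0.16, adjusted p = 2.27e-05) held in each alternative. Lyve1, which binds hyaluronan on lymphatic vessels and sinusoids, had 1.85, 2.03 and 2.39 CPM in treated, 2.47, 1.60 and 0.787 CPM in model and 7.22, 5.60 and 7.95 CPM in control livers. Model and treated libraries overlapped, the 2 lowest values being model ones. It was called in model versus control (log2 fold change -2.10, SE 0.37, adjusted p = 0.0267) and treated versus control livers (log2 fold change -1.73, SE 0.36, adjusted p = 0.00809). The first was lost without any single control library or model replicate 2 (highest adjusted p = 0.11). Mrc1, the mannose receptor, which Kupffer cells share, had 13.7, 20.2 and 23.6 CPM in treated, 20.3, 21.7 and 18.5 CPM in model and 35.9, 26.5 and 43.6 CPM in control livers. Its call in treated versus control livers (log2 fold change -0.88, SE 0.21, adjusted p = 0.0169) was lost without control replicate 3 (adjusted p = 0.0576).

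Clec4g, a lectin of sinusoidal endothelium, Oit3, a secreted or membrane protein of the same cells, and Dnase1l3, a secreted nuclease, were among the members with the lowest treated levels against control. Clec4g had 4.71, 11.5 and 9.68 CPM in treated, 23.1, 17.9 and 17.5 CPM in model and 50.5, 48.6 and 61.0 CPM in control livers. It fell in treated versus model (log2 fold change -1.18, SE 0.29, adjusted p = 0.0347) and treated versus control livers (log2 fold change -2.63, SE 0.30, adjusted p = 0.000582) and lay just outside the threshold in model versus control livers (log2 fold change -1.45, SE 0.28, adjusted p = 0.0528). The call in treated versus model livers was lost without control replicate 1 or 2, any single model library or treated replicate 3 (highest adjusted p = 0.116), with no filter on low counts and with only the 6 libraries compared. A call in model versus control livers was gained without treated replicate 1 or 2.

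Oit3 (chromosome 10, 59422958 to 59441778, minus strand) had 1.36, 2.57 and 3.27 CPM in treated, 4.59, 5.11 and 6.89 CPM in model and 20.3, 15.7 and 22.4 CPM in control livers. It was 8.09-fold lower in treated than in control livers (log2 fold change -3.02, SE 0.31, adjusted p = 0.000141), the lowest estimate among the 41 members, with calls in model versus control (log2 fold change -1.81, SE 0.29, adjusted p = 0.0184) and treated versus model livers (log2 fold change -1.20, SE 0.29, adjusted p = 0.028). The first of those calls was lost without control replicate 3 or either of model replicates 1 and 2, at an adjusted p of up to 0.0977. The other was lost without model replicate 2 or 3 or treated replicate 1 or 2, at up to 0.1, and with only the 6 libraries compared. Dnase1l3 had 4.25, 6.71 and 8.25 CPM in treated, 17.0, 10.5 and 14.2 CPM in model and 43.9, 39.9 and 49.8 CPM in control livers. Its groups were also apart, with log2 fold change -1.68, SE 0.24, adjusted p = 0.0127 in model versus control, log2 fold change -1.12, SE 0.24, adjusted p = 0.0186 in treated versus model and log2 fold change -2.80, SE 0.25, adjusted p = 0.000108 in treated versus control livers. The first was lost when model replicate 2 or 3 was left out (highest adjusted p = 0.065), and the second without model replicate 1 or 3 or treated replicate 2 (highest adjusted p = 0.0688).

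Angiocrine genes encode signals from endothelium to hepatocytes, and the group here also holds the co-receptor Eng. Bmp2, Wnt2 and Eng were lower in treated than in control livers, while Rspo3 and Wnt9b had no call. Bmp2, a BMP ligand that drives hepcidin in hepatocytes, had 1.97, 2.28 and 2.597 CPM in treated, 3.35, 3.70 and 4.41 CPM in model and 12.5, 9.48 and 15.4 CPM in control livers. The groups did not overlap. Bmp2 fell in model versus control (log2 fold change -1.70, SE 0.23, adjusted p = 0.00838) and treated versus control livers (log2 fold change -2.45, SE 0.23, adjusted p = 9.77e-05). The lower level in treated than in model livers was not past the threshold (adjusted p = 0.0625). Eng, a BMP and TGF-beta co-receptor of endothelium, had 16.3, 25.5 and 28.2 CPM in treated, 24.2, 24.5 and 24.3 CPM in model and 52.4, 51.4 and 62.2 CPM in control livers. Treated and model libraries overlapped, and both were lower than control (log2 fold change -1.19, SE 0.18, adjusted p = 0.0127 for model and log2 fold change -1.25, SE 0.18, adjusted p = 0.000899 for treated livers). The call in model livers was lost without model replicate 2 or 3 (highest adjusted p = 0.0639). Fpgs on the other strand overlaps Eng and had 92645 estimated counts over the 9 libraries against 17706 of Eng, so how reads were assigned to one or the other gene is uncertain.

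Wnt2, a Wnt ligand of central vein and pericentral sinusoids, had 0.367, 0.580 and 0.535 CPM in treated, 0.468, 0.766 and 1.14 CPM in model and 3.06, 1.67 and 4.24 CPM in control livers. It was called in treated versus control livers (log2 fold change -2.59, SE 0.47, adjusted p = 0.00383). Wnt9b, a second Wnt ligand of pericentral endothelium, had 0.983, 0.901 and 0.362 CPM in treated, 0.594, 1.28 and 0.752 CPM in model and 1.43, 1.60 and 1.23 CPM in control livers, and no comparison was past the threshold (adjusted p = 0.585, 0.835 and 0.217 for model versus control, treated versus model and treated versus control). Rspo3, which amplifies Wnt signals and is also made by stellate cells, had 3.98, 2.95 and 2.94 CPM in treated, 1.62, 3.23 and 1.85 CPM in model and 3.36, 3.88 and 3.53 CPM in control livers. Treated libraries overlapped with both other groups, and model libraries lay below control libraries without a call (log2 fold change -0.68, SE 0.30, adjusted p = 0.345). The difference between treated and control livers was -0.13 on the log2 scale, with an SE of 0.30.

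The transcription factors were lower in treated than in control livers for 3 of 3 members, and none was called in model versus control livers. Gata4 directs sinusoidal identity and is expressed in other liver cells too (chromosome 14, 63198922 to 63271692, minus strand). It had 7.30, 5.83 and 6.03 CPM in treated, 15.6, 11.9 and 14.2 CPM in model and 15.4, 16.5 and 17.7 CPM in control livers. Model and control libraries overlapped, and treated libraries lay wholly below both. Gata4 fell in treated versus model (log2 fold change -1.12, SE 0.15, adjusted p = 0.00159) and treated versus control livers (log2 fold change -1.37, SE 0.15, adjusted p = 0.000247), with log2 fold change -0.25, SE 0.15, adjusted p = 0.516 in model versus control livers. Both calls held in each alternative. Erg, an ETS factor of endothelium, had 1.41, 1.96 and 2.08 CPM in treated, 3.19, 2.33 and 3.74 CPM in model and 4.95, 3.58 and 6.51 CPM in control livers. Sox18, a SOX factor of vessels, had 1.16, 0.947 and 0.755 CPM in treated, 2.02, 1.27 and 0.840 CPM in model and 3.61, 2.56 and 2.82 CPM in control livers. Treated libraries of Erg lay below the other groups, of which model and control overlapped, while for Sox18 both treated and model libraries lay below control libraries. Both were called in treated versus control livers (log2 fold change -1.47, SE 0.30, adjusted p = 0.00757 for Erg and log2 fold change -1.65, SE 0.38, adjusted p = 0.0129 for Sox18).

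Among receptors coupled to G proteins, grouped with Ramp2 as the partner of Calcrl, 4 of 5 members were called lower in treated than in control livers, all but Ramp2. Gpr182, an atypical chemokine receptor of sinusoidal endothelium, had 3.70, 5.76 and 4.85 CPM in treated, 7.98, 6.13 and 8.94 CPM in model and 26.0, 19.3 and 24.8 CPM in control livers. The groups were apart, with log2 fold change -1.61, SE 0.21, adjusted p = 0.00791 in model versus control and log2 fold change -2.29, SE 0.21, adjusted p = 8.08e-05 in treated versus control livers. On the other strand, Zbtb39 overlaps Gpr182 and had 6404 counts in all against 6051. Calcrl, which binds adrenomedullin together with Ramp2, had 3.42, 3.18 and 2.77 CPM in treated, 5.12, 3.68 and 5.42 CPM in model and 16.1, 11.2 and 7.82 CPM in control livers. It was called in model versus control (log2 fold change -1.30, SE 0.27, adjusted p = 0.0464) and treated versus control livers (log2 fold change -1.90, SE 0.27, adjusted p = 0.00098). In model versus control livers the call was lost without any single library other than control replicate 3 (highest adjusted p = 0.163), with limma-voom and with only the 6 libraries compared. Its partner Ramp2 had 1.86 to 7.70 CPM in treated, 2.88 to 4.99 CPM in model and 4.85 to 9.89 CPM in control livers, with overlap between each pair of groups and no call.

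Adgrl4 and Adgrf5 are adhesion receptors of endothelium. Adgrl4 had 1.38, 1.92 and 2.502 CPM in treated, 3.46, 2.51 and 2.99 CPM in model and 7.51, 9.19 and 8.51 CPM in control livers, with 3 groups that did not overlap. It fell in model versus control (log2 fold change -1.49, SE 0.26, adjusted p = 0.0222) and treated versus control livers (log2 fold change -2.12, SE 0.26, adjusted p = 0.00043). The call between model and control livers was lost without control replicate 2 or 3 or any single model library (highest adjusted p = 0.106). Adgrf5 had 4.17, 9.81 and 10.5 CPM in treated, 12.4, 9.56 and 8.63 CPM in model and 22.2, 26.2 and 30.2 CPM in control livers. Treated replicate 1 was the lowest library, and the call was in treated versus control livers (log2 fold change -1.69, SE 0.31, adjusted p = 0.00581).

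The last group joins clotting proteins, channels and structural genes, and 4 of its 7 members were called lower in treated than in control livers. Plvap, which forms the diaphragms of fenestrated and venous endothelium (chromosome 8, 71497765 to 71511752, minus strand), had 29.1, 30.6 and 36.3 CPM in treated, 21.6, 34.9 and 23.4 CPM in model and 41, 31.7 and 28.1 CPM in control livers. The groups overlapped in each pair. Log2 fold changes were -0.34 in model versus control, 0.26 in treated versus model and -0.07 in treated versus control livers, with an SE of 0.20 in each, and none was past the threshold. Gtpbp3 overlaps it on the other strand, with 4748 counts in all against 16374. Vwf, the von Willebrand factor of large vessels, had 3.89, 3.33 and 4.85 CPM in treated, 2.20, 1.63 and 3.43 CPM in model and 3.57, 7.94 and 7.67 CPM in control livers. Model libraries were the lowest on average, below control and overlapping with treated libraries, and no comparison was called (adjusted p = 0.0956, 0.24 and 0.225 in the same order). Nos3, the endothelial nitric oxide synthase, had 2.01, 2.55 and 2.05 CPM in treated, 2.40, 1.18 and 3.62 CPM in model and 6.36, 3.31 and 4.55 CPM in control livers. Treated libraries lay below control libraries and overlapped with model libraries, and no comparison was called (adjusted p = 0.289, 0.895 and 0.0753 in that order).

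F8, coagulation factor VIII, which sinusoidal endothelium makes, had 1.72, 1.83 and 2.28 CPM in treated, 2.36, 2.46 and 3.17 CPM in model and 6.81, 6.92 and 6.49 CPM in control livers. Its groups did not overlap, and it fell in model versus control (log2 fold change -1.34, SE 0.23, adjusted p = 0.0213) and treated versus control livers (log2 fold change -1.79, SE 0.23, adjusted p = 0.000527). The first call was lost when control replicate 2 or 3 or one of model replicates 1 and 2 was left out, at an adjusted p of up to 0.1. Aqp1, a water channel of endothelium that bile duct cells share, had 7.88, 16.6 and 16.7 CPM in treated, 25.4, 20.4 and 23.6 CPM in model and 80.6, 64.8 and 88.6 CPM in control livers. No groups overlapped, with log2 fold change -1.75, SE 0.27, adjusted p = 0.0213 in model versus control and log2 fold change -2.50, SE 0.27, adjusted p = 0.000492 in treated versus control livers. Between model and control livers the call was lost without control replicate 3 or any single model library (highest adjusted p = 0.114).

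Ehd3, an endocytic protein of sinusoidal and glomerular endothelium, had 15.7, 23.6 and 30.7 CPM in treated, 19.1, 20.3 and 17.0 CPM in model and 53.5, 53.0 and 58.6 CPM in control livers. The model libraries were the lowest on average and overlapped with treated ones. Ehd3 was called in model versus control (log2 fold change -1.55, SE 0.20, adjusted p = 0.00838) and treated versus control livers (log2 fold change -1.24, SE 0.20, adjusted p = 0.00206), with log2 fold change 0.31, SE 0.20, adjusted p = 0.378 in treated versus model livers. Egfl7, a secreted vascular protein whose gene hosts Mir126a, had 11.7, 14.2 and 10.5 CPM in treated, 14.2, 21.4 and 18.0 CPM in model and 28.4, 28.3 and 40.4 CPM in control livers. Treated and model libraries overlapped and lay below control libraries, and the call was in treated versus control livers (log2 fold change -1.42, SE 0.19, adjusted p = 0.000771).

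Summed over the 41 members, the level was 243 to 367 CPM in treated, 435 to 447 CPM in model and 886 to 1055 CPM in control livers, and the groups did not overlap. The ratio of means was 0.726 for treated over model, 0.328 for treated over control and 0.452 for model over control livers. With the authors' FPKM summed in place of CPM these ratios were 0.857, 0.393 and 0.458, and on library totals without TMM they were 0.810, 0.376 and 0.465. Without model replicate 1 treated over model was 0.727 and model over control 0.451. The 10 sinusoidal members summed to 99.8 to 164 CPM in treated, 179 to 203 CPM in model and 414 to 526 CPM in control livers. The 8 members that mark all endothelium (Pecam1, Cdh5, Tek, Tie1, Erg, Esam, Robo4 and Egfl7) summed to 34.3 to 41.5 CPM in treated, 51.9 to 54.7 CPM in model and 101 to 131 CPM in control livers. Both sums were thus under the control range in model and in treated livers.

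Markers of other liver cells were summed in the same way. Hepatic stellate cell markers, 12 genes of the cells that lie beside sinusoids, summed to 254 to 329.6 CPM in treated, 261 to 289 CPM in model and 374 to 446 CPM in control livers. None of them was called in model versus control or treated versus model livers. In treated versus control livers 5 were called lower, led by Lrat, the enzyme that stores retinol (log2 fold change -1.34, SE 0.23, adjusted p = 0.00255), and Rgs5 (log2 fold change -0.80, SE 0.15, adjusted p = 0.00425). Over all genes tested, 8.47% were called lower and 9.36% higher in that comparison, and 4.44% lower and 5.21% higher in treated versus model livers. Stellate estimates lay below 0 for 12 of 12 genes in model versus control livers (median log2 fold change -0.60), against 50.1% of all genes. They did so for 5 of 12 in treated versus model and 10 of 12 in treated versus control livers, against 49.5% and 50.8%. Kupffer cell and macrophage markers, 14 genes, summed to 640.2 to 936 CPM in treated, 375 to 514 CPM in model and 274 to 435 CPM in control livers. Of these, 4 were called higher and none lower in treated versus control livers, led by Cd68, a lysosomal protein of macrophages (log2 fold change 2.86, SE 0.19, adjusted p = 1.36e-05), and Lyz2, a lysozyme of myeloid cells (log2 fold change 3.41, SE 0.32, adjusted p = 0.000325). Both were also higher in treated versus model livers (log2 fold change 1.86, SE 0.19, adjusted p = 0.000346 for Cd68 and log2 fold change 2.69, SE 0.31, adjusted p = 0.00175 for Lyz2). Cd68 was also higher in model versus control livers (log2 fold change 1.00, SE 0.19, adjusted p = 0.0319). Log2 estimates of the 14 macrophage markers ranged from -2.05 to 3.41 in treated versus control livers, with 2 below 0. In treated versus model livers they ranged from -1.67 to 2.69, with 3 below 0. Hepatocyte markers had 3 of 9 called lower in treated versus control livers, among them Apob (log2 fold change -0.46, SE 0.12, adjusted p = 0.026) and Ass1 (log2 fold change -0.57, SE 0.17, adjusted p = 0.0415). In treated versus model livers 1 was called higher, Hnf4a (log2 fold change 0.38, SE 0.11, adjusted p = 0.0497), and none was called in model versus control livers. Red blood cell markers summed to 348 to 585 CPM in treated, 861 to 1981 CPM in model and 652 to 949 CPM in control livers. Hba-a1 was lower in treated versus model livers (log2 fold change -1.39, SE 0.28, adjusted p = 0.0147) and Alas2 in treated versus control livers (log2 fold change -2.29, SE 0.51, adjusted p = 0.0239). Neutrophil markers summed to 7.16 to 187 CPM in treated, 10.2 to 26.5 CPM in model and 1.44 to 3.19 CPM in control livers. Of 7 tested, 3 were called higher in treated versus control livers, led by Camp (log2 fold change 6.36, SE 1.51, adjusted p = 0.0245) and S100a8 (log2 fold change 4.63, SE 1.20, adjusted p = 0.0395). No marker of cholangiocytes, lymphocytes, lymphatic endothelium or skeletal muscle passed the test in any comparison. Muscle markers went uncalled although they summed to 137 to 178 CPM in treated and 0.626 to 1.38 CPM in control livers. Their median log2 fold change there was 9.68. The part of any of these cell types in the endothelial values was not tested.

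**Figure D4:**
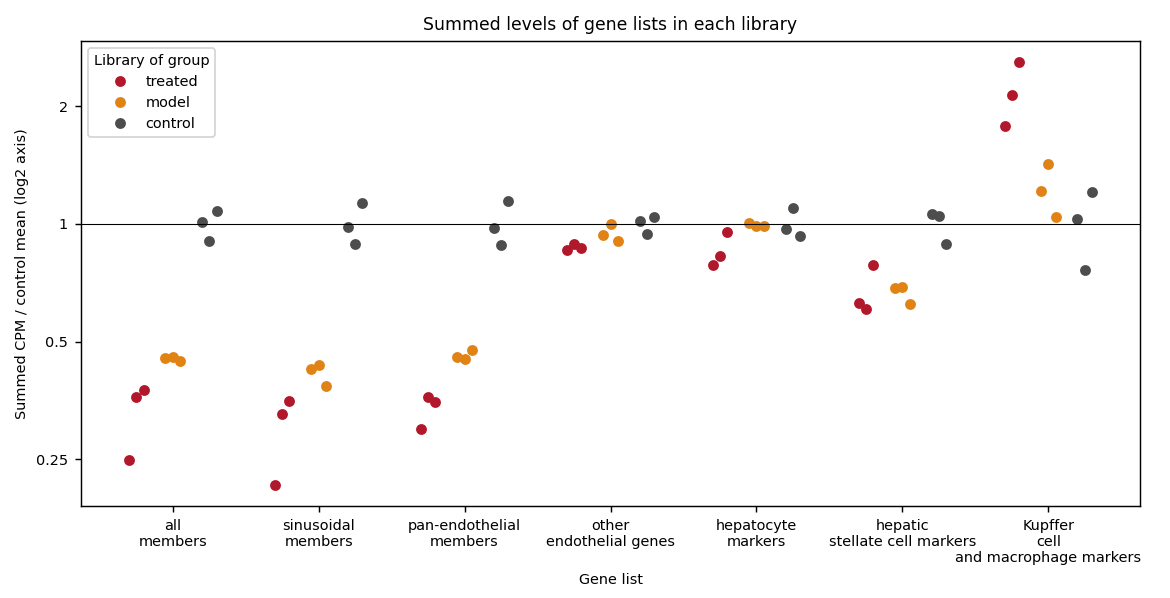
Summed CPM of gene lists in each library, divided by the mean of the control libraries, on a log2 axis. The 3 member sums at the left average 0.328, 0.298 and 0.337 of control in treated and 0.452, 0.415 and 0.462 in model libraries, whereas macrophage markers lie above 1 in treated libraries. The sum of other endothelial genes averages 0.871 of control in treated and 0.949 in model libraries. In control libraries Ctsl alone averages 726 CPM of that sum of 2231 CPM. Hepatocyte markers average 0.856 in treated and 0.994 in model libraries, and stellate cell markers 0.673 and 0.666.

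To set members against each other, the CPM of each was divided by the summed CPM of the 8 pan-endothelial genes (7 where the gene is itself one of them) and given per 100 CPM of that sum. Since the sum is lower in model and treated livers, a gene that did not change reads higher, and 71.6% of all genes tested had ratios wholly higher in model than in control livers, 0.486% wholly lower. Among the members, 4 were wholly higher (Nrp1, Mrc1, Gata4 and Plvap) and 11 wholly lower. In treated against control livers, 6 members were wholly higher and 13 wholly lower, against 79.1% and 0.58% of all genes tested. In treated against model livers it was 6 higher and 6 lower, against 45.0% and 3.14%.

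Plvap had a ratio of 84.7, 73.7 and 90.3 in treated, 41.2, 67.2 and 42.8 in model and 36.6, 31.3 and 21.5 in control livers. Treated ratios lay above model ratios and these above control ratios, while its own CPM overlapped between groups. Nrp1 had ratios of 28.2, 46.3 and 42.4 in treated, 52.3, 66.2 and 66.4 in model and 20.1, 26.2 and 14.2 in control livers, highest in model. Rspo3 ratios were 11.6, 7.11 and 7.32 in treated, 3.09, 6.22 and 3.39 in model and 3.00, 3.84 and 2.69 in control livers. Vwf ratios were 11.3, 8.03 and 12.1 in treated, 4.19, 3.14 and 6.27 in model and 3.19, 7.85 and 5.85 in control livers. For both genes, treated ratios lay wholly above model and control ratios.

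On the other side, Clec4g had ratios of 13.7, 27.8 and 24.1 in treated, 44.2, 34.4 and 32.0 in model and 45.1, 48.1 and 46.5 in control livers, and Oit3 had 3.97, 6.19 and 8.14 in treated, 8.76, 9.85 and 12.6 in model and 18.1, 15.5 and 17.1 in control livers. These and Tek were wholly lower in each comparison, so their levels were lower beyond the difference in the sum of the other pan-endothelial genes. Lyve1 and Ehd3 were wholly lower in model than in control livers and wholly higher in treated than in model livers. Stab1, Eng and Adgrf5 had ratios in model livers that overlapped with those of control livers. With 3 libraries a group, an exact permutation test of a single ratio could not go below p = 0.1, and none was run.

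**Figure D5:**
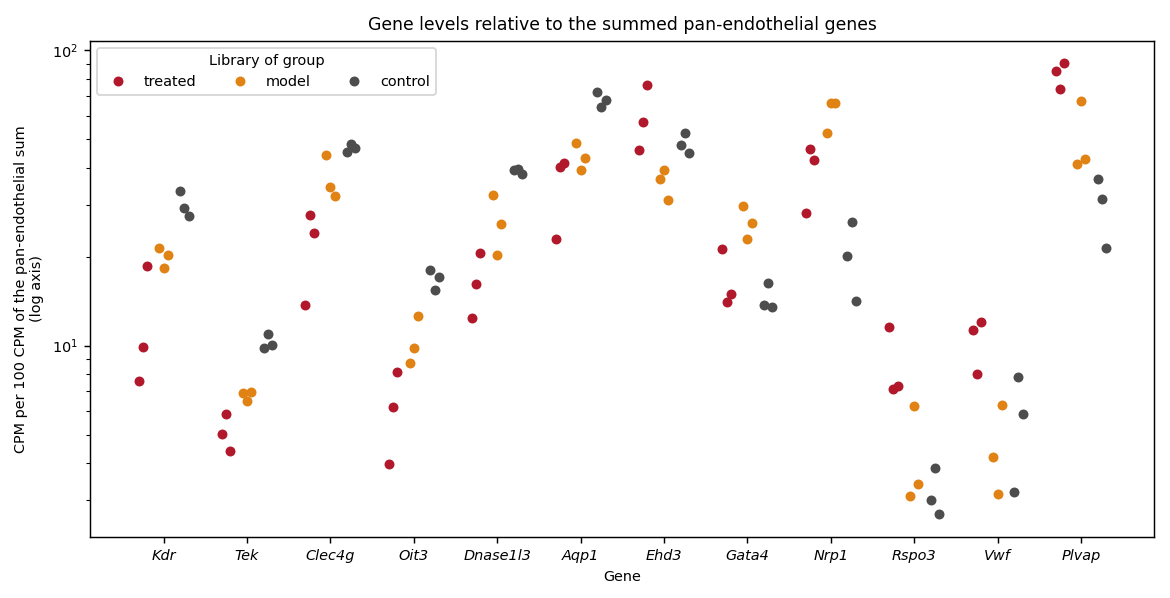
CPM of 12 genes per 100 CPM of the summed pan-endothelial genes in each library, on a log axis, with treated, model and control libraries from left to right for each gene. Clec4g, Oit3 and Tek lie lowest in treated, then in model and highest in control libraries, Plvap lies the other way round, and Gata4 and Nrp1 are highest in model libraries.

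Levels of different genes can be compared only per length, for which the authors' FPKM served. In control livers the highest members were Aqp1 (19.7 to 27.98 FPKM), Clec4g (15.8 to 20.5) and Plvap (11.7 to 17.7), followed by Eng and Stab2, and each of these overlapped with its neighbour in the order, while the lowest library of Aqp1 lay above the highest of Plvap. In treated livers Plvap was the highest (14.7 to 17.2 FPKM) and did not overlap with the next, Eng (4.02 to 6.52 FPKM), while Aqp1 was at 3.01 to 6.08 FPKM. In model livers Plvap (8.92 to 15.5 FPKM) lay above Aqp1 (6.86 to 7.93 FPKM) and Clec4g (6.15 to 7.72 FPKM), of which Aqp1 and Clec4g overlapped. Kdr held place 32 of 41 by median FPKM in treated, 19 in model and 15 in control livers. The lowest members in control livers were Wnt9b, Flt1 and Vwf, each under 0.5 FPKM.

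Estimated transcript counts were looked at for the same genes, of which 17 had more than 1 transcript with at least 5% of the gene's counts. The division between such transcripts is itself an estimate, and it changed between libraries of a group. A second 23-exon transcript of Tek had 0 counts in each of the treated and model libraries and 269, 110 and 241 counts in control livers, while the main transcript had 112, 150 and 107 counts in treated, 188, 190 and 204 in model and 290, 410 and 398 in control livers. For Flt1, a transcript of 13 exons, against 30 in the main one, took 16.5, 19.8 and 20.5% of the gene's counts in treated, 29.9, 7.87 and 9.59% in model and 9.69, 18.9 and 18.4% in control livers, and the groups overlapped. The 7-exon transcript of Fcgr2b took 47.8, 42.7 and 46.0% in treated livers. Its shares were lower in model (21.8, 13.1 and 33.6%) and control livers (17.7, 23.5 and 5.21%). The 69-exon transcript of Stab1 took 79.4, 74.7 and 78.6% in control livers. Its shares were lower in treated (46.2, 61.2 and 58.1%) and model livers (50.9, 52.2 and 68.9%). One Gata4 transcript took 61.6, 100 and 100% of its counts in treated, 76.6, 10.5 and 42.0% in model and 0.00, 3.26 and 0.00% in control livers. Its partner took the rest, except in control replicate 2, where the partner took 95.6%.

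Beyond the members, 82 further endothelial genes of a list were tested. Of these, 8 were called lower and 1 higher in model versus control livers, 7 lower and 9 higher in treated versus model livers, and 34 lower and 9 higher in treated versus control livers. Over all genes tested, the shares called lower and higher were 0.596% and 0.519%, 4.44% and 5.21%, and 8.47% and 9.36% in the same order. The list holds genes that other liver cells also express. Its median log2 fold changes were -0.70, -0.12 and -0.81 in these comparisons. Tspan7, a tetraspanin, was at 6.35 ± 0.652 CPM in model and 17.7 ± 4.22 CPM in control livers (mean ± SD, n = 3 libraries each, as for the genes that follow, log2 fold change -1.48, SE 0.20, adjusted p = 0.00851). Cd300lg, a lectin-like receptor of capillaries, was at 4.25 ± 1.01 CPM in model and 14.5 ± 3.06 CPM in control livers (log2 fold change -1.77, SE 0.24, adjusted p = 0.0086). The gene called higher in model livers was Icam1, an adhesion molecule for leukocytes that many cells induce (log2 fold change 0.87, SE 0.14, adjusted p = 0.0184). Icam1 was also higher in treated versus control livers (log2 fold change 1.48, SE 0.14, adjusted p = 0.00011), and Cd300lg was lower there (log2 fold change -2.82, SE 0.25, adjusted p = 6.85e-05). In treated versus model livers Ets2, an ETS factor (log2 fold change 1.46, SE 0.13, adjusted p = 0.000184), and Fabp4, a fatty acid carrier of capillaries (log2 fold change 1.58, SE 0.17, adjusted p = 0.000531), were higher. Cldn5, a claudin of endothelial tight junctions, was at 1.02 ± 0.241 CPM in treated and 6.48 ± 1.78 CPM in control livers (log2 fold change -2.66, SE 0.30, adjusted p = 0.000268). Maf, a transcription factor of sinusoidal endothelium and macrophages, was at 14.8 ± 3.01 CPM in treated and 28.7 ± 5.36 CPM in model livers (log2 fold change -0.96, SE 0.18, adjusted p = 0.00798). Cldn5 and Maf were picked after their values were seen.

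Ligands of the receptors and pericentral targets of Wnt signals were called in both directions, while the BMP targets with a call were lower. Of 10 VEGF, angiopoietin and related ligands tested, none was called in model versus control livers, at a median log2 fold change of -0.26. Vegfa, the main VEGF ligand and a product of hepatocytes among other cells, was at 124 ± 15.5 CPM in treated and 173 ± 7.69 CPM in model livers (log2 fold change -0.48, SE 0.11, adjusted p = 0.0214) and fell in treated versus control livers too (log2 fold change -0.71, SE 0.11, adjusted p = 0.00166), while Vegfb was higher in treated than in control livers (log2 fold change 0.61, SE 0.13, adjusted p = 0.00745). Of 20 pericentral genes that depend on Wnt signals in hepatocytes, 1 was called higher and none lower in model versus control livers, 3 higher and 2 lower in treated versus model livers, and 4 higher and 1 lower in treated versus control livers, with medians of 0.07, -0.13 and 0.06. Over all genes tested, 5.21% were called higher and 4.44% lower in treated versus model livers and 9.36% higher and 8.47% lower in treated versus control livers. Slc13a3, a dicarboxylate transporter, was higher in model versus control (log2 fold change 0.78, SE 0.13, adjusted p = 0.0184), treated versus model (log2 fold change 0.63, SE 0.12, adjusted p = 0.0109) and treated versus control livers (log2 fold change 1.41, SE 0.13, adjusted p = 7.26e-05). Cyp2e1, a pericentral cytochrome, was lower in treated versus model livers (log2 fold change -0.90, SE 0.22, adjusted p = 0.0297), and Lect2, a secreted hepatocyte protein, was higher in treated versus control livers (log2 fold change 0.87, SE 0.13, adjusted p = 0.00151). Axin2, a direct target of the pathway, was at 7.97 ± 2.504 CPM in treated and 9.601 ± 4.71 CPM in control livers (adjusted p = 0.682), and Glul, the pericentral glutamine synthetase, at 498 ± 180.2 CPM in treated and 582 ± 88.6 CPM in control livers (adjusted p = 0.622), both picked for their role after values were seen. Of 7 BMP targets, 2 were lower in treated versus control livers, Smad6 (log2 fold change -1.31, SE 0.33, adjusted p = 0.0203) and Smad7 (log2 fold change -0.77, SE 0.24, adjusted p = 0.0465), both feedback inhibitors of the pathway, and none was called in the other comparisons.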

How the data were processed

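Per the file headers, the authors deposited estimated counts and FPKM, a level per transcript length, for genes and for transcripts. The submitters' processing notes name HISAT2, an aligner, with no version. The sources used here do not give the quantifier, annotation or strand setting. In each library every transcript count equalled FPKM times length times 1 constant, within 1 count plus 0.1 percent, so counts are estimates from coverage. Totals were 56440871 to 60665156 per library.

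Gene counts, whole as deposited, were tested in edgeR 4.0.16 under R 4.3.3, in 1 quasi-likelihood fit over 9 libraries with robust dispersions, TMM scaling and group as the only term. Genes were kept with filterByExpr (minimum count 10, minimum total 15). P-values were adjusted by Benjamini-Hochberg over 18113 genes within each of 3 comparisons. SE is the absolute log2 fold change over the square root of F. The fit was tested on simulated data. The members and lists were chosen with earlier results of these data known. Every member is accounted for, with values per library for those called in a comparison and for a fixed subset. Of the other lists, 205 of 209 entries matched a gene, and the 2 called genes with the smallest p in each comparison are named. The 15 alternatives comprised DESeq2 1.42.0 (its size factors and its test), limma-voom (limma 3.58.1), no filter, fits of the 6 libraries compared, a replicate block and leaving out each library. Gene coordinates are those of the files, which equalled GENCODE M21 (GRCm38) for 35 of the 41 members, each member printed with coordinates among them.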

Additional observations from a re-analysis of the deposited data

How the results depend on the processing

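For each member 15 alternatives were run, and no called direction changed in any of them. Of the 19 members called in model versus control livers, 7 kept the call in each alternative (Pecam1, Tek, Stab2, Fcgr2b, Bmp2, Gpr182 and Ehd3). Of 10 in treated versus model livers 3 did (Stab2, Fcgr2b and Gata4), and of 33 in treated versus control livers 29 did. The number of members called lower in model versus control livers was 29 with the DESeq2 test and 7 to 21 without single libraries. In treated versus model livers it was 14 with the DESeq2 test, 5 with only the 6 libraries compared and 3 to 8 without single libraries. In treated versus control livers it was 34 with the DESeq2 test and 30 to 33 without single libraries. No member was called higher under any of these alternatives.

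Over all genes, model versus control livers gave 94 higher and 108 lower, against 444 and 427 with the DESeq2 test, and 28 to 112 and 26 to 119 without single libraries. Treated versus model livers gave 943 higher and 805 lower, against 1423 and 1319 with the DESeq2 test, and 525 to 915 and 357 to 745 without single libraries. Treated versus control livers gave 1696 higher and 1535 lower, and 1170 to 1631 and 999 to 1394 without single libraries.

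The replicate numbers are not said to pair samples, so they were not taken as pairs. Deviations from group means correlated at -0.132 to 0.126 between same-numbered libraries. Differently numbered libraries were not set beside them, so these values do not decide whether samples were paired. With a replicate block, 12, 7 and 32 members were called lower in model versus control, treated versus model and treated versus control livers, and over all genes 61 higher and 59 lower, 700 higher and 545 lower, and 1398 higher and 1213 lower in the same order. The block ended the model versus control calls of Kdr, Flt4, Tie1, Lyve1, Calcrl, Adgrl4 and Aqp1, the treated versus model calls of Flt4, Tek and Clec4g and the treated versus control call of Ptprb.

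The summed level of the members in model over control livers was 0.452. It was 0.465 on library totals without TMM, 0.458 with the authors' FPKM and 0.432 to 0.471 without single libraries. Treated over model was 0.726, with 0.810 without TMM, 0.857 with the authors' FPKM and 0.674 to 0.814 without single libraries. Treated over control was 0.328, with 0.376, 0.393 and 0.305 to 0.368 in the same order. Some log2 estimates without a call changed sign. In treated versus model livers Nos3 was at 0.022 with limma-voom, and without single libraries at -0.45 to 0.30. Without single libraries Cdh5 ranged over -0.29 to 0.11, Robo4 over -0.43 to 0.077, Mrc1 over -0.25 to 0.12, Eng over -0.22 to 0.14, Ramp2 over -0.17 to 0.71, Wnt9b over -0.47 to 0.15 and Icam2 over -0.14 to 0.29. In treated versus control livers Plvap ranged over -0.18 to 0.098. The cause of these differences was not tested.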
